A study of Homo sapiens with 8 samples.

Results

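The BEX (brain-expressed X-linked) and TCEAL (transcription elongation factor A like) genes are a family of small, related genes of the X chromosome, compared here in HEK293T, an established line from human embryonic kidney, between unmodified (WT) and Pcif1-KO cells. Every gene whose symbol is BEX or TCEAL followed by a number was taken. The annotation names 14 such genes, and 9 of them had a value in the authors' deposited table, out of 8801 genes listed in all. Each of the 9 had a ratio with both siRNAs of the study. These 9 were BEX1, BEX2, BEX3, BEX4 and BEX5 with TCEAL1, TCEAL4, TCEAL8 and TCEAL9. TCEAL2, TCEAL3, TCEAL5, TCEAL6 and TCEAL7 have no ratio here. The family was chosen by its log2 ratios of WT over Pcif1-KO with both siRNAs, BEX1 above all, so these ratios are given as a description and without a test.

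PCIF1 is the methyltransferase that makes m6Am, the modified adenosine at the first base after the cap of many mRNAs. Cells of each genotype had received 5 pmol of siRNA, either scrambled (siScram) or directed at PCF11 (siPCF11), which acts in 3′ end cleavage and in transcription termination. Nuclei were collected 48 h later, and the design names s4U labelling of nascent RNA and sequencing of mRNA 3′ ends. The 4 groups used here, WT with siScram, WT with siPCF11, Pcif1-KO with siScram and Pcif1-KO with siPCF11, held 1 library each, and 4 rescue libraries (Pcif1-KO given EGFP, PCIF1-WT or PCIF1-CD) were not analysed here. How many Pcif1-KO clones there were is not given in the sources used here, so loss of PCIF1 and other differences between the lines cannot be told apart. PCIF1 itself was not analysed here, so its own ratio gives no check of the knockout. Each value is a log2 ratio, WT over Pcif1-KO, and each gene has at most 1 per siRNA. A value below 0 therefore means less RNA signal in WT than in Pcif1-KO cells. Levels and read depth are unknown, no replicate spread exists for a ratio, and the cell type could not be checked from ratios.

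BEX proteins are small adaptors best known from neurons. BEX3, also called NADE or NGFRAP1, binds the neurotrophin receptor p75NTR, which NGFR encodes, and takes part in its death signalling. BEX1 has been linked to the same receptor and to neuronal differentiation. TCEAL proteins resemble a part of TFIIS, the factor encoded by TCEA1 that helps stalled RNA polymerase II to resume, and TCEAL1 was described as a nuclear phosphoprotein that modulates transcription. BEX and TCEAL genes arose by duplication in mammals and lie side by side with the related ARMCX and GPRASP genes.

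All 9 genes lie on the X chromosome. In RefSeq on GRCh38.p14, which is the assembly that hg38 names, 8 of them fill a block of 568 kb from BEX1 to TCEAL1, and BEX5 lies 907 kb from BEX1. RefSeq has 13 protein-coding genes inside the block, and the 8 with a ratio are all members of the family. The DNA around the starts of the 9 genes shows how close some of the copies are, so 90 bases of each are printed here from RefSeq. Each run is written 5′ to 3′ on the strand of the gene and holds 80 bases before the RefSeq start and 10 bases from it on, so that base 81 is the start. For TCEAL4 the start in RefSeq's promoter table lies 9.28 kb inside the RefSeq gene span, while for the other 8 it is the outer end of the span. Capitals mark CACGTG, an E-box that reads the same on both strands.
BEX5, chrX:102155968-102156057, minus strand: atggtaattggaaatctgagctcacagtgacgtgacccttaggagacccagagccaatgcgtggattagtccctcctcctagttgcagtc
BEX1, chrX:103064162-103064251, minus strand: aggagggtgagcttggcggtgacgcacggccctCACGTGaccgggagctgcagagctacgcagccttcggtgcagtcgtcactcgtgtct
BEX4, chrX:103215012-103215101, plus strand: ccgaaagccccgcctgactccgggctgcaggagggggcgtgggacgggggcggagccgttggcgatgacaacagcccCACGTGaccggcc
TCEAL8, chrX:103255146-103255235, minus strand: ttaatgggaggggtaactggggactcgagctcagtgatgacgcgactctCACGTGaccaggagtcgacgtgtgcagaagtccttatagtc
BEX2, chrX:103310981-103311070, minus strand: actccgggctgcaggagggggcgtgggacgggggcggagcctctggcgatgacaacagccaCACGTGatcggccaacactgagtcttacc
TCEAL9, chrX:103356426-103356515, plus strand: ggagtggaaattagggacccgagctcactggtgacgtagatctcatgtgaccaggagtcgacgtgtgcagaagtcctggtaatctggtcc
BEX3, chrX:103376243-103376332, plus strand: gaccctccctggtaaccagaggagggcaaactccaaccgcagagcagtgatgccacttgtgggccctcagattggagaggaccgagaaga
TCEAL4, chrX:103585435-103585524, plus strand: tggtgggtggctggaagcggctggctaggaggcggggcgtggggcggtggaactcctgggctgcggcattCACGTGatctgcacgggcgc
TCEAL1, chrX:103628636-103628725, plus strand: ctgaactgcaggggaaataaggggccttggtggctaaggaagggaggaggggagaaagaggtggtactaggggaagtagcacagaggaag

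Within the 300 bases that RefSeq's promoter table gives per gene (250 before the start and 50 from it on), BEX2 and BEX4 shared the longest run of identical bases of any pair of members, at 45 bases. BEX1 and BEX3 shared a run of 35 bases and TCEAL8 and TCEAL9 a run of 31, whereas the median over the 36 pairs of members was 9 bases. When the 300 bases were aligned, 94 bases were paired between BEX1 and BEX3. Between BEX2 and BEX4 it was 280, and between TCEAL8 and TCEAL9 it was 260. The likeness of BEX1 and BEX3 was thus confined to a smaller part of the 300 bases. CACGTG was found in 5 of the 9 members, BEX1, BEX2, BEX4, TCEAL4 and TCEAL8, and in 806 of the 7295 listed genes with a promoter in the table (11.0%). It was also found in TCEAL2, TCEAL3, TCEAL5 and TCEAL6, the 4 further family genes in that table, and in ARMCX6 and GPRASP3, 2 of the 4 listed ARMCX and GPRASP genes with a promoter in the table. In all 5 members the base after it was an A, and the longer CACGTGA, searched on both strands, was found in 6.33% of the listed genes. CACGTG was looked for after the sequences had been read. TATAAA, searched on both strands, was in none of the 9 members and in 4.96% of the listed genes. GGGCGG, a GC box searched on both strands, was in 6 of 9 and in 73.6%. Searched in the same way, TGACG was in 7 of 9 and in 37.4%, and CCAAT in 4 of 9 and in 38.1%. In BEX2 and BEX4 the only TGACG match lay after the start, 19 and 35 bases past the start base. A match describes these letters and is not evidence of a bound factor, and related copies are not independent.

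The authors placed all 9 members in their class of short genes. RefSeq spans were 1.52 kb for BEX1 (the shortest) to 2.27 kb for BEX5, except for TCEAL4, at 11.5 kb. By m6Am class, 5 were m6Am genes (BEX2, BEX3, BEX4, TCEAL8 and TCEAL9) and 4 were non-m6Am genes (BEX1, BEX5, TCEAL1 and TCEAL4), against 60.6% m6Am genes among the 3522 short genes listed. Since m6Am forms on an adenosine at the first transcribed base, the RefSeq start base was set beside the class. It was A in 2 of the 5 m6Am members, BEX3 and TCEAL9, G in BEX2 and BEX4 and C in TCEAL8. Of the 4 non-m6Am members it was A in BEX1, BEX5 and TCEAL1 and G in TCEAL4. Over all listed genes with a promoter in the table it was A in 49.6% of m6Am and in 39.8% of non-m6Am genes, so the RefSeq start base and the authors' class often differ.

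**Figure D1:**
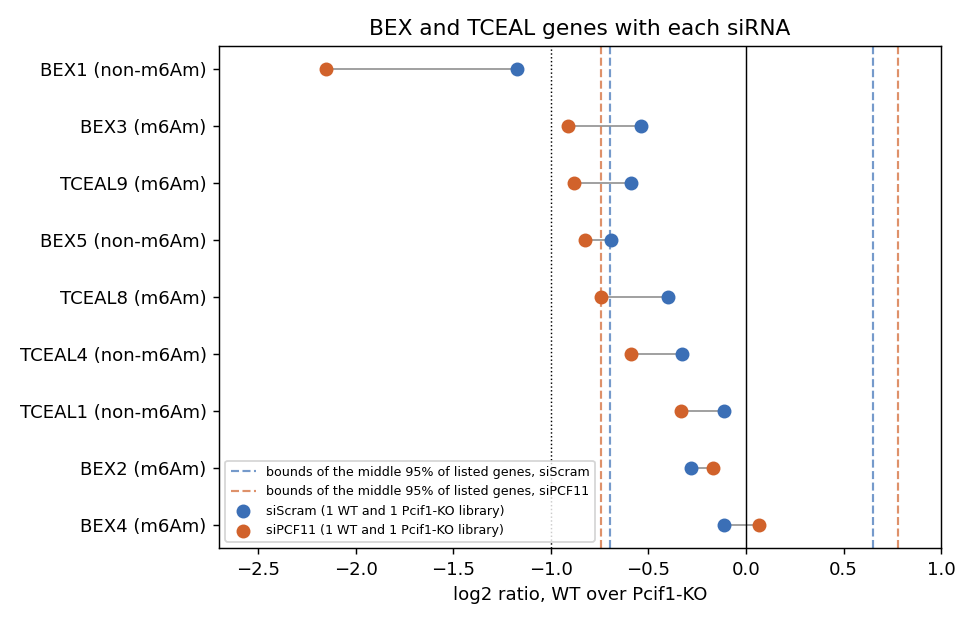
Log2 ratio of WT over Pcif1-KO (horizontal axis) for each of the 9 BEX and TCEAL genes (rows, with the authors' m6Am class), with siScram in blue and siPCF11 in orange; each point rests on 1 WT and 1 Pcif1-KO library. Dashed lines bound the middle 95% of all listed genes with each siRNA and the dotted line marks -1; BEX1 lies beyond -1 with both siRNAs, and BEX4 is the only gene with a ratio above 0, with siPCF11.

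With siScram, the median ratio of the 9 members was lower than that of all listed genes, and BEX4 and TCEAL1 lay within the middle 50% of listed genes. The ratio was below 0 for 9 of 9 members, against 51.1% of the 7893 listed genes, and the members' median was -0.40 against -0.0096 for all listed genes. A ratio below -0.5 was found for 4 of 9, BEX1, BEX3, BEX5 and TCEAL9, against 6.98% of listed genes. A ratio below -1, which means a 2-fold lower value in WT cells, was found for 1 of 9, BEX1, against 0.519% of listed genes, and 0 of 9 had a ratio above 1, against 0.393%. As the members were picked with these ratios known, nothing is read from these shares.

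BEX1 (ENSG00000133169.5, hg38 chromosome X, 103062651 to 103064171) had the lowest ratios of the family. In the authors' deposited table it was at -1.17 with siScram and at -2.15 under siPCF11. Its signal was thus 2.26-fold and 4.45-fold lower in the WT libraries. It stood at rank 16 from the lowest among 7893 genes with siScram and at rank 5 among 8499 with siPCF11. Among genes of the X chromosome alone it was at rank 4 of 266 and rank 3 of 290.

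BEX3, which encodes the p75NTR-binding member, was at -0.54 with siScram and at -0.91 under siPCF11 in the authors' deposited table. BEX5, the member outside the block, was at -0.69 and -0.83 in the authors' deposited table. Both were thus below -0.5 with each siRNA and above -1 with each, so that among BEX genes BEX1 alone passed 2-fold. BEX2 was at -0.28 and -0.17 in the authors' deposited table. BEX4, which encodes a protein described as binding tubulin, was at -0.11 with siScram and 0.069 under siPCF11 in the authors' deposited table. BEX2 and BEX4, the pair with the longest shared run around their starts, had the ratios nearest 0 among BEX genes with both siRNAs. BEX1 and BEX3 had the next longest run, over a shorter aligned stretch. The ratio of BEX3 was higher than that of BEX1 by 0.64 with siScram and by 1.24 with siPCF11. How reads that match more than 1 copy were counted is not given in the sources used here, so the split of signal between close copies is uncertain. The shared runs lie around the starts, and likeness at the mRNA 3′ ends, which were sequenced, was not measured.

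Among the 4 TCEAL genes, TCEAL9, also called WBP5, was lowest, at -0.59 with siScram and -0.88 under siPCF11 in the authors' deposited table. TCEAL8, which shares the run of 31 bases with TCEAL9, was at -0.40 and -0.75 in the authors' deposited table. TCEAL4 was at -0.33 and -0.59, and TCEAL1 at -0.11 and -0.33, in the authors' deposited table. All 4 were thus below 0 with each siRNA, in the order TCEAL9, TCEAL8, TCEAL4, TCEAL1 both times, and none passed 2-fold. With no replicate spread it cannot be said which neighbours in that order differ.

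The siPCF11 libraries, from cells in which PCF11 was targeted, are separate libraries of the same lines. The members were picked with these ratios known as well, so nothing is read from the shares below. With siPCF11, 8 of 9 members were below 0, against 51.1% of the 8499 listed genes, and the exception was BEX4. The members' median was -0.75, against -0.010 over all listed genes. A ratio below -0.5 was found for 6 of 9 members, against 8.70% of listed genes, and one below -1 for 1 of 9, BEX1, against 0.659%. None of the 9 was above 1, against 0.835%. With both siRNAs, 8 of 9 members were below 0, against 31.5% of the 7591 genes with both ratios. BEX1, BEX3, BEX5 and TCEAL9 were below -0.5 with both, against 2.25%. Without BEX1, the median of the other 8 was -0.36 with siScram and -0.67 with siPCF11.

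**Figure D2:**
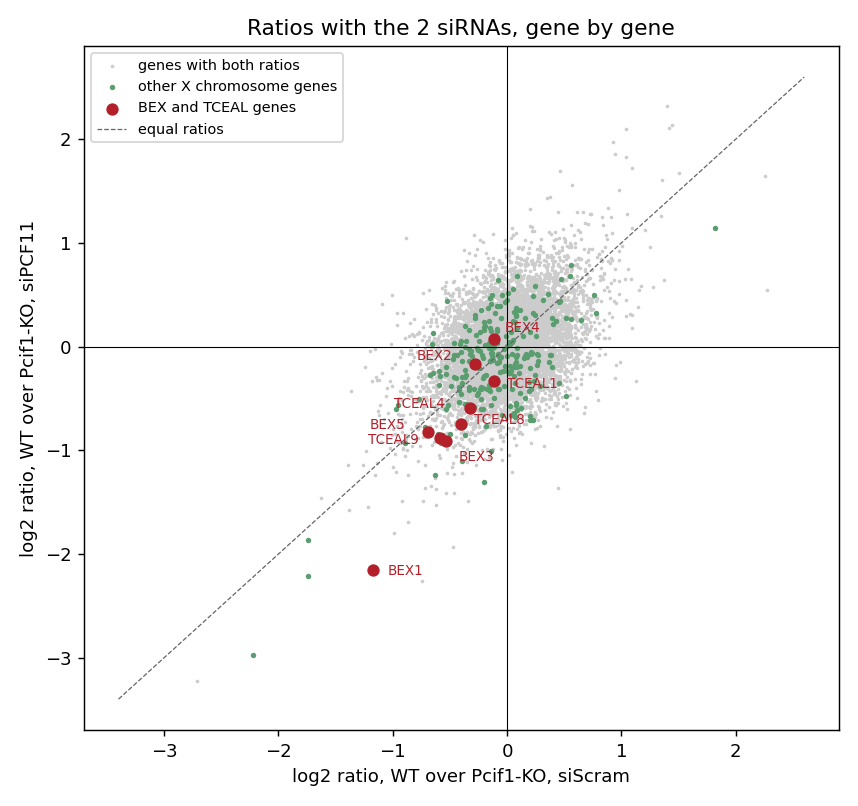
Log2 ratio of WT over Pcif1-KO with siScram (horizontal axis) against siPCF11 (vertical axis), 1 point per gene with both ratios; grey marks all genes, green the other X chromosome genes and red the 9 BEX and TCEAL genes. The dashed line marks equal ratios, and 7 of the 9 red points lie below it, BEX1 farthest.

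The ratio was lower with siPCF11 than with siScram for 7 of 9 members, against 49.2% of the genes with both ratios. The difference, siPCF11 minus siScram, was -0.98 for BEX1, -0.38 for BEX3, -0.35 for TCEAL8, -0.30 for TCEAL9 and -0.26 for TCEAL4. It was -0.22 for TCEAL1 and -0.13 for BEX5, and above 0 for BEX2 (0.12) and BEX4 (0.18). The median of the 9 differences was -0.26, against 0.0072 over all genes. Over all genes 95% of differences lay between -0.76 and 0.80. Of the 9 members BEX1 alone lay outside that range, at rank 42 from the lowest of 7591. These differences come from the ratios by which the family was chosen, so nothing is read from the rank or the share. The median of the region was also lower with siPCF11. The other listed genes between 100 and 110 Mb on the X chromosome had a median of -0.037 over 20 genes with siScram. With siPCF11 it was -0.26 over 25 genes, and 19 genes had both ratios, so the 2 medians rest on partly different genes. Taken relative to those medians, the ratio was lower with siPCF11 for 5 of 9 members, the median difference was -0.035 and that of BEX1 was -0.75. The part of the region's shift in the members' differences was not tested.

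By m6Am class the members overlapped. The 5 m6Am members ranged from -0.59 to -0.11 with siScram in the authors' deposited table, with a median of -0.40, and the 4 non-m6Am members from -1.17 to -0.11, with a median of -0.51. With siPCF11 the m6Am members ranged from -0.91 to 0.069 and the non-m6Am members from -2.15 to -0.33 in the authors' deposited table, with medians of -0.75 and -0.71. The member with the lowest ratio, BEX1, was a non-m6Am gene and that with the highest siPCF11 ratio, BEX4, an m6Am gene. With siScram both classes held a gene at -0.11 and genes below -0.5.

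**Figure D3:**
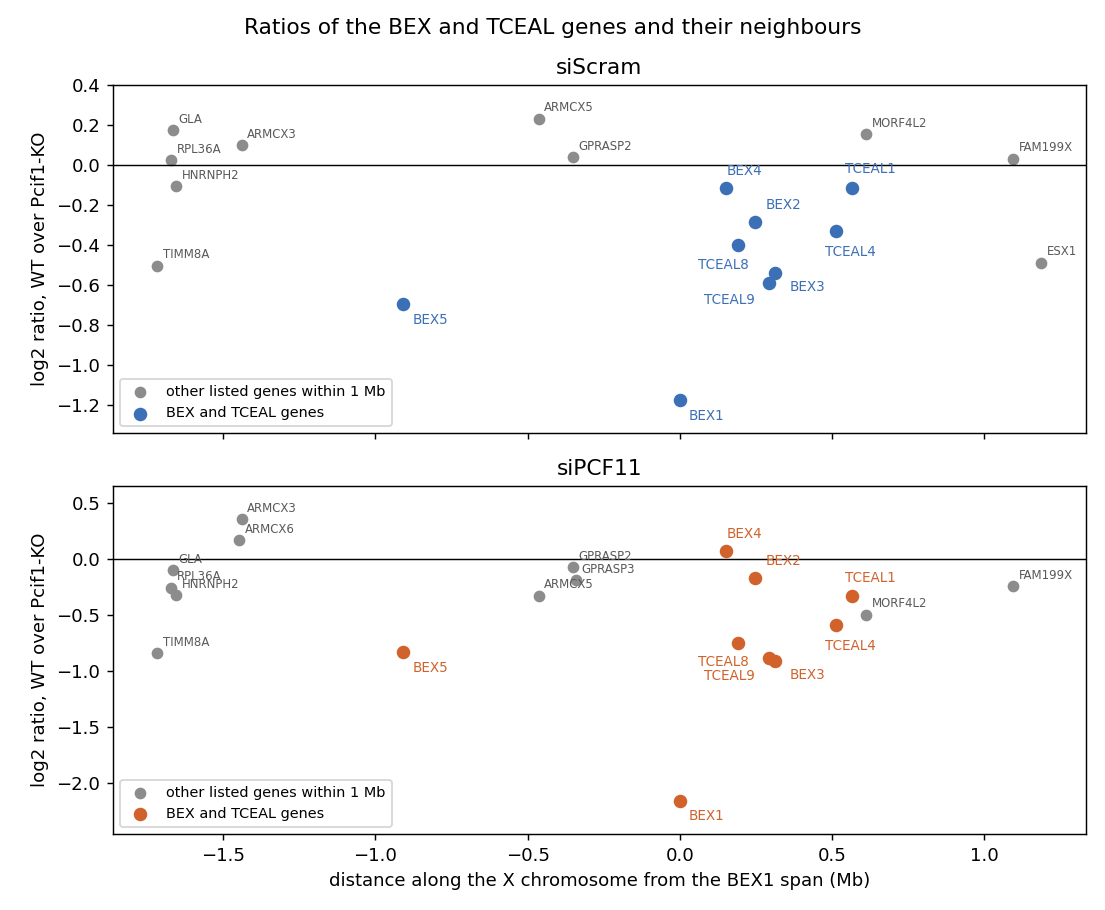
Log2 ratio of WT over Pcif1-KO (vertical axes) with siScram (top) and siPCF11 (bottom) against the distance along the X chromosome from BEX1 in Mb (horizontal axis), for the BEX and TCEAL genes (coloured) and the other listed genes within 1 Mb of one of them (grey). With siScram MORF4L2, ARMCX5 and GPRASP2 lie above 0 beside coloured points below 0, and with siPCF11 those 3 neighbours lie below 0 as well.

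Because the members sit together, their neighbours were set beside them. Besides the members, 12 listed genes lie within 1 Mb of one. Their siScram ratios ran from -0.50 to 0.23 in the authors' deposited table, with 3 of 10 below 0 and a median of 0.037. With siPCF11 they ran from -0.84 to 0.35 in the authors' deposited table, with 9 of 11 below 0 and a median of -0.24. BEX1, BEX3 and TCEAL9 lay below all of these neighbours with both siRNAs, and BEX5 did so with siScram alone. The other 5 members lay within the neighbours' range with both siRNAs. The lowest neighbour was TIMM8A, which encodes a chaperone of mitochondrial import and lies 805 kb from BEX5, at -0.50 with siScram and -0.84 under siPCF11 in the authors' deposited table.

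MORF4L2, a subunit of histone acetyltransferase complexes that lies 44.5 kb from TCEAL1, was at 0.16 with siScram and -0.50 under siPCF11 in the authors' deposited table. Between BEX5 and BEX1, ARMCX5 was at 0.23 and -0.33 and GPRASP2, which encodes a sorting protein for G protein-coupled receptors, at 0.040 and -0.073 in the authors' deposited table. GPRASP3 and ARMCX6 were listed with siPCF11 alone, at -0.19 and 0.17 in the authors' deposited table. ARMCX3, which encodes a mitochondrial outer membrane protein, was at 0.10 and 0.35 in the authors' deposited table. Across the ARMCX and GPRASP genes, 0 of 3 were below 0 with siScram and 3 of 5 with siPCF11, and none passed 2-fold in either direction. FAM199X was at 0.034 and -0.24 and GLA, which encodes alpha-galactosidase A, at 0.18 and -0.10 in the authors' deposited table. HNRNPH2, a splicing regulator, was at -0.10 and -0.32 in the authors' deposited table. The homeobox gene ESX1 had a siScram ratio alone, -0.49 in the authors' deposited table.

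The median of the other X chromosome genes was also below 0. Without the 9 members, 61.9% of 257 X genes were below 0 with siScram and 65.1% of 281 with siPCF11, with medians of -0.10 and -0.11. Ratios below -0.5 were found for 10.1% and 14.9% of these X genes and ratios below -1 for 1.17% and 2.49%. Relative to the X chromosome median the members' own median was -0.30 with siScram and -0.64 with siPCF11, and BEX1 was at -1.07 and -2.04. Relative to the window of 10 Mb it was -0.36 and -0.48, with BEX1 at -1.14 and -1.89. BEX2 changed side there, from -0.17 with siPCF11 in the authors' deposited table to 0.096 relative to the window. Relative to the window TCEAL1 was at -0.074 and -0.068 and BEX4 at -0.075 and 0.33. On the same reference BEX5 was at -0.66 and -0.56, BEX3 at -0.50 and -0.65 and TCEAL9 at -0.55 and -0.62. TCEAL8 was at -0.36 and -0.48 and TCEAL4 at -0.29 and -0.33.

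**Figure D4:**
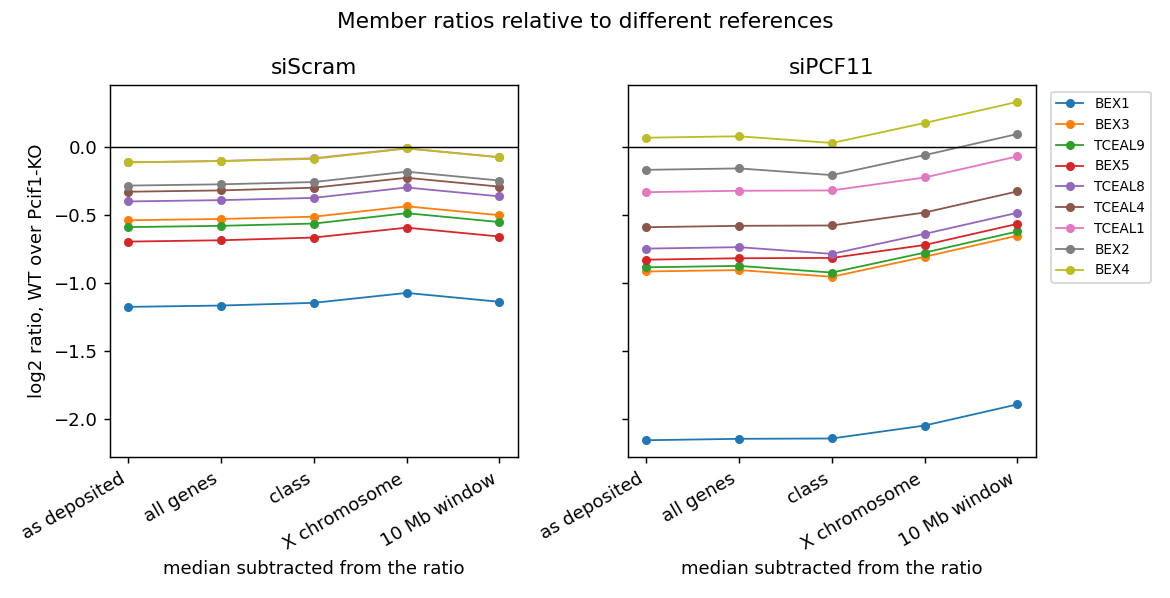
Log2 ratio of WT over Pcif1-KO (vertical axis) of the 9 members with siScram (left) and siPCF11 (right), as deposited and after taking away the median of all listed genes, of the gene's length and m6Am class, of the other X genes or of the other genes of the 10 Mb window (horizontal axis). BEX1 stays below -1 with every reference shown, and BEX2 crosses 0 with siPCF11 relative to the window.

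Genes whose products work with BEX and TCEAL proteins, or resemble them, were set beside the members. Of 5 TFIIS genes 4 were listed, and 3 of the 4 were below 0 with each siRNA, with medians of -0.22 and -0.25. TCEA1, the general TFIIS gene, was at -0.21 and -0.67 and TCEA2 at 0.053 and 0.11 in the authors' deposited table. TCEANC, which is X-linked, was at -0.37 and -0.30 and TCEANC2 at -0.22 and -0.19 in the authors' deposited table. None of the 4 passed 2-fold.

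Of 29 elongation factors that act on RNA polymerase II beside TFIIS, 25 were listed with siScram and 27 with siPCF11. Ratios below 0 were found for 9 of 25 and 13 of 27, with medians of 0.085 and 0.00038, and none passed 2-fold in either direction. ELOB, a subunit of Elongin and of CUL2 ubiquitin ligases, was lowest with siScram, at -0.64 with siScram and -0.22 under siPCF11 in the authors' deposited table. CCNT1, a cyclin of P-TEFb, was highest with siScram, at 0.52 and then 0.040 with siPCF11, in the authors' deposited table. MLLT1, at the median with siScram, was at 0.085 and was the highest with siPCF11, at 0.52, in the authors' deposited table.

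Of 15 genes for partners of BEX proteins, 9 were listed. The 15 include genes of neurotrophin receptors, of their adaptors and of the CUL2-FEM1B ubiquitin ligase, besides others such as BCL2. With siScram 3 of 9 were below 0, with siPCF11 4 of 9, the medians were 0.054 and 0.028, and none passed 2-fold. SORT1, which encodes the neurotrophin co-receptor sortilin, was highest with siScram, at 0.48 and then 0.063 with siPCF11, in the authors' deposited table. TRAF6, an adaptor of p75NTR signalling, was lowest with both siRNAs, at -0.15 and -0.37, in the authors' deposited table. BCL2, the gene at the siScram median, was at 0.054 and -0.026 in the authors' deposited table. No ratio was listed for NGFR itself.

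Since BEX genes are known from neurons, neuronal marker genes were set beside them. Of 13, 5 were listed with siScram and 5 with siPCF11, with 1 and 3 below 0 and medians of 0.20 and -0.12. NEFM, the medium neurofilament chain, was at -2.71 and -3.23 in the authors' deposited table and was the 1 neuronal gene past 2-fold. ENO2, a neuronal enolase, was highest with siScram, at 0.40 in the authors' deposited table, and UCHL1, a ubiquitin hydrolase, was at the median, at 0.20 with siScram and 0.35 with siPCF11. The part of neuronal gene expression in the BEX ratios was not tested. Of 7 markers of blood, liver, stromal, endothelial, epithelial and heart cells none was listed.

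The 5 genes nearest to BEX1 in the plane of both ratios, by Euclidean distance among 7591 genes, were BARX2, ADAMTS1, CASP10, MAGEA1 and PCDH7. BARX2, a homeobox gene on chromosome 11, was at -0.99 with siScram and -1.80 under siPCF11 in the authors' deposited table, at a distance of 0.40. ADAMTS1, a secreted protease gene on chromosome 21, was at -0.74 and -2.26 and CASP10, an initiator caspase gene on chromosome 2, at -0.86 and -1.69 in the authors' deposited table. MAGEA1, which like BEX1 is X-linked, was at -1.74 and -2.21 in the authors' deposited table. PCDH7, a protocadherin gene on chromosome 4, was at -1.21 and -1.54 in the authors' deposited table. The likeness rests on 2 ratios per gene, and no other BEX or TCEAL gene lay as near.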

How the data were processed

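The authors deposited 2 tables, of short and of long genes, with 8 columns of log2 ratios of WT over Pcif1-KO, per the file headers. Per the submitters' processing notes the tools included STAR 2.7.10a, cutadapt 3.7, DESeq2 1.30.1, HTSeq 2.0.1 and bcl2fastq 2.20, on hg38, with no roles stated. How libraries were scaled, any shrinkage, the length limit and the m6Am assignment: not given in the sources used here. No counts, errors or p-values were used and depth per sample is unknown. A 3′ end ratio can also reflect a shift of the cleavage site. Gene IDs without version were matched to symbols (8792 of 8801) and through these to RefSeq spans (8725). Groups came from sample titles. Members were set beside all listed genes by counts and medians, computed with pandas 2.3.3 and tested on simulated data. Alternatives subtracted the median of all genes, of the class, of the other X genes or of the other genes in the same 10 Mb window (at least 15 genes), or changed the threshold. Others kept only genes with both ratios or left out BEX1. Members and lists were chosen with earlier results of these data known. Named were all members, the 10 nearest listed neighbours within 1 Mb, the highest, lowest and median gene of each list with at least 5 measured genes (all genes of shorter lists) and the 5 genes nearest to BEX1. NGFR is also named for its role, TIMM8A after its values were seen, and 1 gene of the partner list is not reported here. Promoter sequences are from RefSeq, GRCh38.p14.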

Additional observations from a re-analysis of the deposited data

Results flagged for a closer look

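BEX4 was the 1 member whose ratio lay on opposite sides of 0 with the 2 siRNAs. It was at -0.11 with siScram and at 0.069 with siPCF11 in the authors' deposited table, each from 1 WT and 1 Pcif1-KO library. The difference between the siRNAs was not tested.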

How the results depend on the processing

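Of 119 values under an alternative, 113 kept their direction and moved by less than 0.28 or, for counts, by no more than 1.5 times. For 4 of the 113, only genes with both ratios were kept. As all 9 members had both, these 4 could not change. The limit of 0.28 is the SD of the differences between the siRNAs over 7591 genes, divided by root 2. As the siRNAs are different treatments, it is not a replicate spread. The subtracted median farthest from 0 was -0.26, so no ratio could pass that limit by subtraction and only signs could change. Relative to the window the difference of TCEAL4 went from -0.26 to -0.035 and that of BEX4 from 0.18 to 0.41, both counted as kept. The count of members past 2-fold was 1 with each siRNA. It was 4 with siScram and 6 with siPCF11 at a log2 ratio of 0.5, and 0 with siScram at 1.5. For 3 results the sign changed relative to the 10 Mb window. BEX2 with siPCF11 went to 0.096, the difference between the siRNAs went to 0.093 for BEX5 and to 0.0061 for TCEAL1, and the regional medians given in the text show the shift that was taken away. The window reference for differences and the medians without BEX1 were chosen after seeing the data. No replicate could be left out, as each group compared held 1 library. No paired analysis was possible because the groups compared had 1 library each. Depth is unknown, so counting error could not be given.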
